A study of Mus musculus with 14 samples.

Results

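Gene expression was compared between R6/2 and wild-type mouse striatum on the 8 arrays whose sample titles begin with M.C, out of 14 arrays in the series. These arrays were chosen by their titles and by no measured value. The M.C arrays comprised 4 from R6/2 mice and 4 from wild-type mice, all on a CBAxC57BL/6 background and 6 weeks old. The R6/2 transgene holds the promoter and exon 1 of the human huntingtin gene with an expanded CAG repeat, so the model expresses a fragment of the human protein in addition to both mouse Htt copies. Both genotypes were saline controls of drug studies and had been injected with normal saline 30 to 60 minutes before death, so no array shows untreated tissue. The other 6 arrays of the series, with titles beginning Mith, come from mice given the same description, 3 R6/2 and 3 wild-type. Nothing in the labels ties arrays to animals, so the p-values measure the spread between arrays, and the small number of arrays limits the precision of each value.

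The striatum consists mostly of GABA-releasing projection neurons, which receive glutamate input from cortex and thalamus and dopamine input from the midbrain. Neurons of the direct pathway carry the D1 dopamine receptor with substance P and dynorphin, and neurons of the indirect pathway carry the D2 receptor with enkephalin. Dopamine receptors raise or lower cyclic AMP, phosphodiesterases degrade it, and the phosphatase inhibitor DARPP-32 relays it to channels, receptors and transcription. In Huntington disease the projection neurons are the cells most affected in the striatum, and reduced transcripts of their signalling genes are a known early feature of R6/2 mice. Whole striatum was measured, so fewer cells of a type and less RNA per cell cannot be told apart in any value below.

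The array measures 22626 probe sets apart from its controls, and 1 probe set, chosen by its annotation and mean signal, stands for each of 12393 named genes. Signals are log2 values, centred so that all arrays have the same median. A difference is the mean of the R6/2 arrays minus that of the wild-type arrays on this scale, and a percentage of wild-type is the same difference turned back to a linear scale. A gene was called when limma's moderated test gave p under 0.05 after Benjamini-Hochberg adjustment across the 22626 probe sets, and "rose" and "fell" are used of called genes.

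3 arrays stood apart. R6/2 array 4 lay below all other M.C arrays by more than 0.5 on the log2 scale for 262 probe sets, and it dominated the first principal component, which held 35.1% of the variance. R6/2 array 2 lay below all others by the same margin for 94 probe sets and had the largest 3' minus 5' difference of the Actb control probe sets, a measure of RNA quality, at 0.852. That difference was 0.277 to 0.852 on R6/2 arrays and 0.199 to 0.403 on wild-type arrays (exact two-sided permutation p = 0.114, adjusted over 8 quality measures p = 0.183). The Gapdh difference was 0.102 to 0.570 on R6/2 arrays and -0.004 to 0.129 on wild-type arrays (exact permutation p = 0.0571, adjusted p = 0.152, where 4 arrays against 4 allow no p below 0.0286). The SD of the log2 values was narrower on every R6/2 array, 1.573 to 1.636 against 1.649 to 1.669 on wild-type arrays (exact permutation p = 0.0286, adjusted p = 0.152). The 18S control probe set averaged 9.21 on R6/2 arrays and 10.83 on wild-type arrays (exact permutation p = 0.0571, adjusted p = 0.152). Wild-type array 2 carried signal of anterior pituitary hormone genes: Prl, prolactin, was at 13.46 there and at 7.21 to 9.39 on the other 7 M.C arrays, and Gh, growth hormone, was at 13.49 and 7.17 to 9.70. Wild-type array 3 was the next highest, with Prl at 9.39, Gh at 9.70 and Pomc at 8.26, so leaving out wild-type array 2 does not remove all of this signal. Of 13 anterior pituitary genes listed after the data were seen, 10 were measured and 0 were called. Their mean deviation was 2.18 on wild-type array 2 and -0.51 to 0.09 on the others. Main results are therefore also given without R6/2 array 4 and wild-type array 2. The mouse Htt probe set cannot check the transgene. It read 7.91, 7.78, 7.96 and 7.90 on R6/2 arrays and 7.86, 7.91, 7.94 and 7.93 on wild-type arrays.

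**Figure D1:**
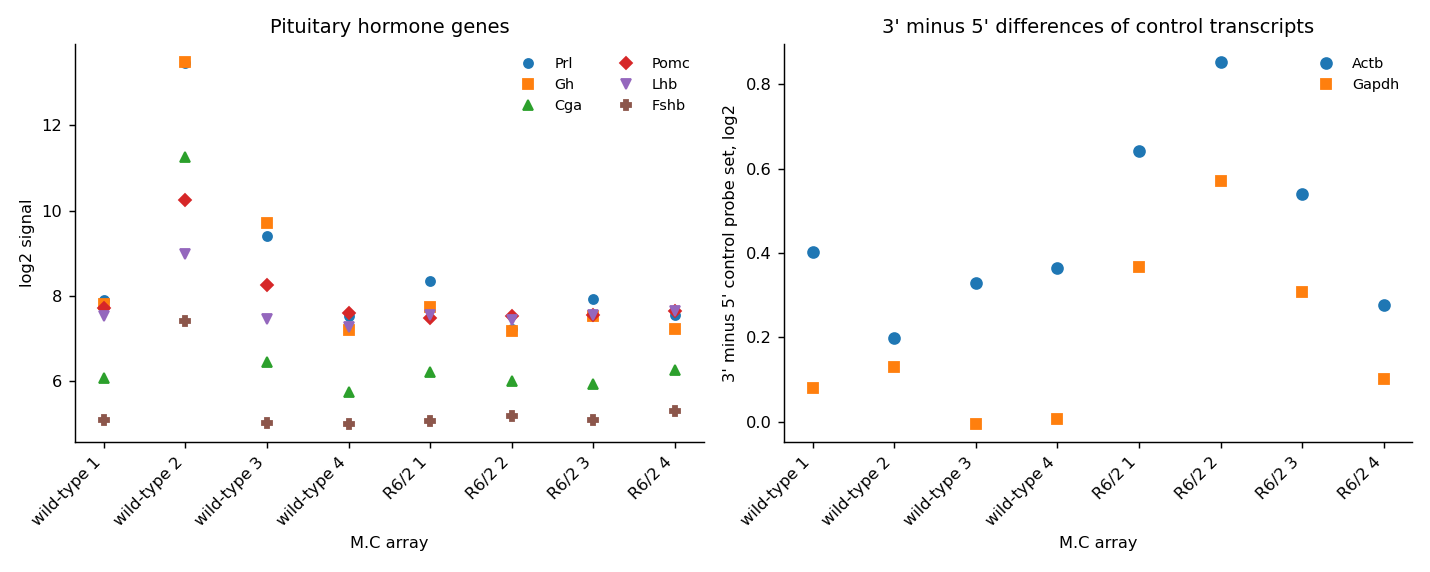
Left, log2 signal of 6 pituitary hormone genes on each M.C array; right, the log2 difference between the 3' and 5' control probe sets of Actb and of Gapdh on the same arrays. Wild-type array 2 has Prl at 13.46 and Gh at 13.49, and the Actb difference reaches 0.852 on R6/2 array 2.

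The difference between the genotypes was mostly a loss of signal. Of 22626 probe sets 558 were called, which is 2.47%, and 523 of them (2.31% of all) were lower in R6/2 against 35 (0.155%) that were higher. Falls thus made up 93.7% of the calls. On the probe set that stands for each gene, 286 genes were called, 269 of them lower (2.17% of genes) and 17 higher (0.137%). Genes called only through another probe set are not in this count. Falls were also larger than rises: the median called fall was -0.52 and the median called rise 0.34, 20 probe sets fell by at least 1 on the log2 scale and none rose as far. The R6/2 and wild-type arrays did not overlap for 518 of the 523 falls and for all 35 rises, while over all probe sets the R6/2 arrays lay wholly below in 6.33% and wholly above in 4.84%. A call made on these same arrays favours such separation, so these counts add no support to the calls. Before adjustment, 3773 probe sets (16.7%) had p under 0.05 in limma's test. Of 152 called genes with several probe sets, 128 had all of them on the same side of 0. Another probe set was called in the same direction in 69 of the 152 and in the opposite direction in 0.

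The number of calls depended strongly on single arrays, and falls outnumbered rises in each fit given here that made calls. It was 962 without R6/2 array 4, 816 of them lower, and 242 without R6/2 array 1. It was 339 without wild-type array 2, 331 of them lower, and 636 without both R6/2 array 4 and wild-type array 2, 89.2% of them lower. It was 542 without R6/2 array 2, 95.0% of them lower, and no fit left out all 3 arrays. Leaving out wild-type array 1, 3 or 4 gave 295, 287 and 272. The share of falls among the calls was 83.2% with array weights, 82.2% with the Actb difference as a covariate and 71.9% with quantile normalization and without R6/2 array 4. Without R6/2 array 4 the Actb difference of the R6/2 arrays, 0.539 to 0.852, lay above that of every wild-type array. With that array left out and the Actb difference as a covariate, 0 probe sets were called by limma's adjusted test and 2146 had an unadjusted p under 0.05. The 20 largest falls were chosen on these same arrays, with clone and predicted gene names left out. Their median in this fit was -0.94, against -0.98 on all 8 arrays. Single genes moved both ways, Kcnip2 from -1.29 to -0.67 and Ryr1 from -1.26 to -1.57. The genotypes did not overlap in the covariate of this fit, so these values rest on extrapolation.

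Most falls were among bright probe sets. In 10 bins of near-equal size by mean signal, the brightest bin held 177 called falls and 1 called rise, and the dimmest held 3 falls and 2 rises. The median difference over all probe sets of a bin went from 0.039 in the dimmest to -0.080 in the brightest. It went from 0.038 to -0.021 without R6/2 array 4 and from 0.010 to 0.039 after quantile normalization, so the slope with signal level turned over with the scaling. Quantile normalization left 367 calls, 317 lower and 50 higher. The narrower SD of the R6/2 arrays stands beside this shift. The part of the shift in the calls was not tested beyond these alternatives.

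**Figure D2:**
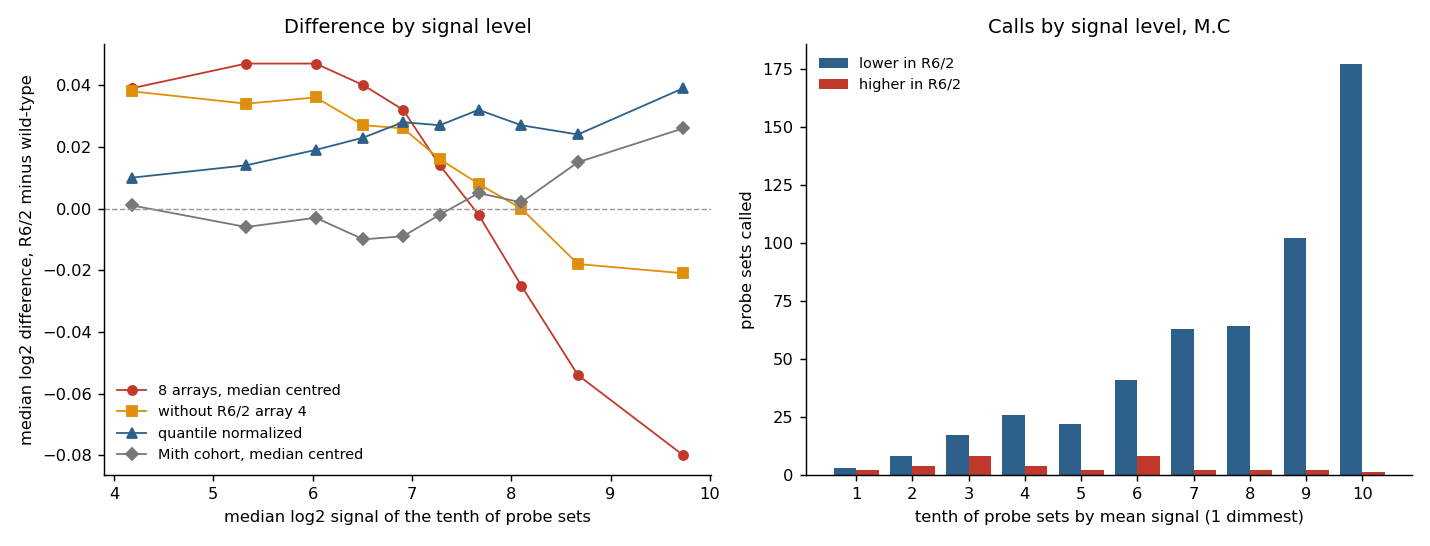
Left, the median log2 difference, R6/2 minus wild-type, in each of 10 bins of probe sets by signal, against the median log2 signal of the bin, for 4 sets of values; right, the number of called probe sets in each bin. The 8 median-centred M.C arrays run from 0.039 to -0.080, and the brightest bin holds 177 falls.

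The genes shared by both kinds of striatal projection neuron were the group with the largest fall. Of 33 listed genes 26 were measured, 22 fell and 0 rose, and the median difference was -0.76, against 2.17% of genes lower and a median of 0.016 over all genes. Each gene was centred on its own mean over the 8 arrays, and the mean of the 26 was then -0.54, -0.52, -0.19 and -0.34 on R6/2 arrays 1 to 4 and 0.46, 0.31, 0.37 and 0.45 on the wild-type arrays. All 4 R6/2 arrays were therefore lower, R6/2 array 3 least. Without R6/2 array 4 and wild-type array 2, 23 fell with a median of -0.83, and after quantile normalization 16 fell with a median of -0.64. Members not described further on include Strn, a scaffold protein named striatin (-1.0 ± 0.13), Spock3, a proteoglycan (-0.93 ± 0.17), and Tmem158 (-0.63). The list is a known set of striatal genes, and earlier results of these data were known when it was written.

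Ppp1r1b encodes DARPP-32, the phosphatase inhibitor that integrates dopamine and glutamate signals in projection neurons. It read 9.60, 9.45, 10.10 and 9.83 on the R6/2 arrays and 11.04, 10.78, 10.88 and 10.75 on the wild-type arrays. The groups were separated by a wide gap, and R6/2 array 3 was the highest of its group. Ppp1r1b fell to 46.1% of wild-type (-1.12 ± 0.13, SE, adjusted p = 0.00185 in limma). Arpp21 and Arpp19, both phosphoproteins regulated by cyclic AMP, fell as well. Arpp21 read 10.23, 10.22, 10.76 and 10.24 in R6/2 and 11.60, 11.50, 11.38 and 11.68 in wild-type and fell by 1.17 ± 0.12 (adjusted p = 0.00144). Here 3 R6/2 arrays were within 0.02 of each other and array 3 stood above them, still below all wild-type arrays. Arpp19 read 9.24, 9.73, 9.86 and 9.86 in R6/2 and 10.96, 10.81, 10.90 and 11.13 in wild-type and fell by 1.28 ± 0.13 (adjusted p = 0.00144), and its other probe sets gave -1.02 to -0.43.

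Phosphodiesterases, which break down cyclic nucleotides, were among the largest falls. Pde10a, the phosphodiesterase enriched in projection neurons, read 9.27, 8.62, 9.49 and 10 on the R6/2 arrays and 10.71, 10.54, 10.44 and 10.58 on the wild-type arrays. R6/2 array 2 was far below the rest and R6/2 array 4 nearest to wild-type. Pde10a fell to 42.9% of wild-type (-1.22 ± 0.22, adjusted p = 0.0139). Its call did not survive 1 of the 8 leave-one-out fits or quantile normalization (-1.07, adjusted p = 0.0618), and its other probe sets gave -1.39 to -0.49. With the Actb difference as a covariate Pde10a was at -0.71 and stayed called (limma adjusted p = 0.026). Pde1b, which is activated by calcium and calmodulin, read 10.11, 10.08, 10.39 and 10.39 in R6/2 and 11.32, 11.01, 11.15 and 11.15 in wild-type. The spread within its groups was small, and it fell to 53% of wild-type (-0.92 ± 0.10, adjusted p = 0.00144). Pde7b fell by 0.78 ± 0.15 and Pde2a by 0.49 ± 0.08, while Pde4a (-0.26) and Pde4b (-0.20) were not called.

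Of the 30 measured genes of cyclic AMP and dopamine signalling, 10 fell and 0 rose, and the list median was -0.19. After quantile normalization 6 fell. The list shares Pde10a, Ppp1r1b, Pde1b, Pde2a and Drd2 with the projection neuron lists. Besides these and Pde7b, the falls were Gnb5 (-0.62 ± 0.10), the G protein beta subunit that pairs with RGS proteins, the phosphatase subunit Ppp1ca (-0.43 ± 0.09), the phosphatase inhibitor Ppp1r1a (-0.43 ± 0.08) and Prkar1a (-0.40 ± 0.07), a regulatory subunit of protein kinase A. The kinase's catalytic subunits Prkaca (0.00) and Prkacb (-0.10), the G protein Gnas (-0.02) and the transcription factor Creb1 (-0.06) were not called. Drd1 and Adora2a had no probe set assigned to them alone, so neither is reported.

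**Figure D3:**
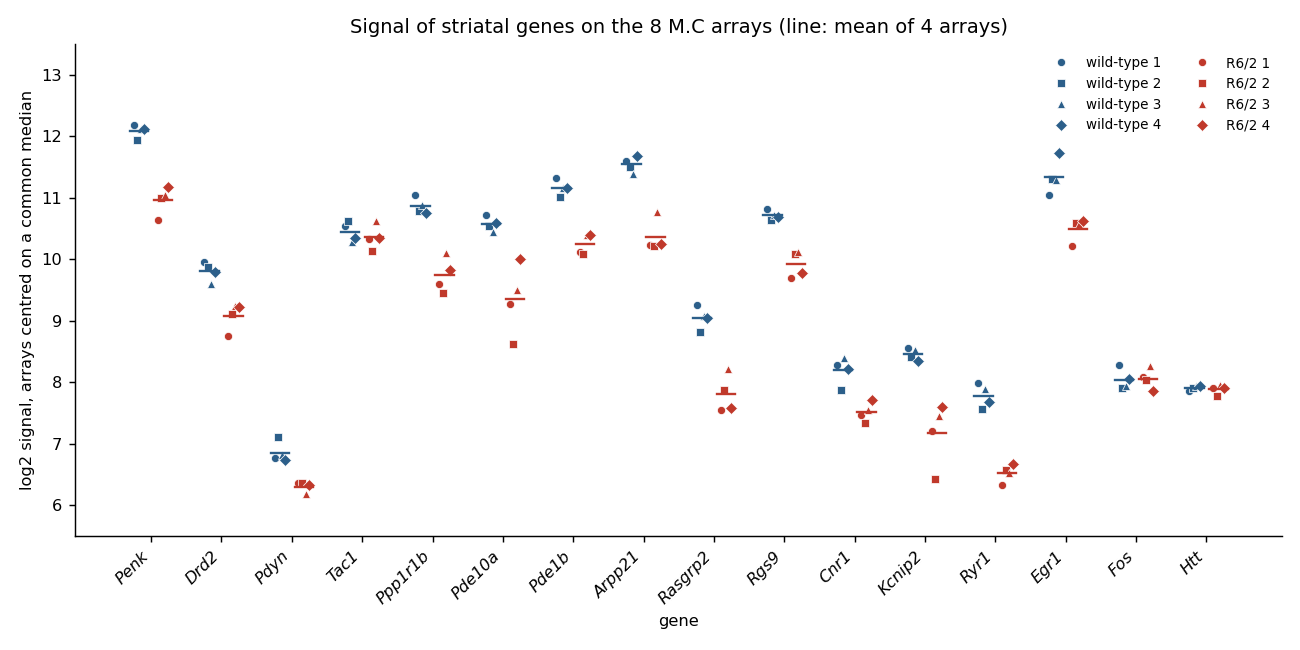
Log2 signal of 16 genes on the 4 wild-type (blue) and 4 R6/2 (red) M.C arrays, 1 symbol shape per array, with a line at the mean of each group. Penk, Ppp1r1b, Pde10a and Rasgrp2 show no overlap between the groups, while Tac1, Fos and Htt overlap.

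Regulators of G proteins and of small GTPases fell with them. Rasgrp2, an exchange factor that activates Rap, read 7.54, 7.87, 8.21 and 7.58 in R6/2 and 9.25, 8.81, 9.08 and 9.05 in wild-type. It fell to 42.2% of wild-type (-1.24 ± 0.14, adjusted p = 0.00193), and its other probe sets gave -0.55 to -0.43. Rgs9, whose striatal form speeds the shut-off of D2 receptor signals, read 9.69, 10.08, 10.12 and 9.78 in R6/2 and 10.82, 10.64, 10.71 and 10.69 in wild-type. Wild-type arrays were tight and the R6/2 arrays all lay below them, and Rgs9 fell by 0.80 ± 0.10 (adjusted p = 0.00324). Its other probe set gave -0.01. Rgs4 fell by 0.94 ± 0.13, with other probe sets at -1.6 to -1.06. In the whole list 8 of 22 measured genes fell and 0 rose, with a median of -0.27, and the others were Rasd2 (-0.75 ± 0.16), Rgs2 (-0.69 ± 0.11), Rasgrp1 (-0.63 ± 0.08), Rap1gap (-0.57 ± 0.10) and Rgs14 (-0.41 ± 0.07). The call of Rasd2 did not survive 5 of the 8 leave-one-out fits. Rgs19 stood at 0.37 and Rgs16 at 0.01, and neither was called.

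Calcium signalling genes fell in part. Ryr1, a channel that releases calcium from internal stores, had the smallest adjusted p of the genes called lower and named here. It read 6.32, 6.57, 6.52 and 6.66 on the R6/2 arrays and 7.99, 7.56, 7.89 and 7.67 on the wild-type arrays. The groups were far apart with a small spread, at 41.8% of wild-type (-1.26 ± 0.10, adjusted p = 0.000433). The related channels Ryr3 (-0.36) and Ryr2 (-0.06) were not called. Itpka, which phosphorylates inositol trisphosphate, fell by 0.88 ± 0.14. Smaller falls were those of Camkk2, a kinase of calmodulin-dependent kinases (-0.69 ± 0.13), the calcineurin subunit Ppp3ca (-0.63 ± 0.10), the calmodulin-binding peptide Pcp4 (-0.62 ± 0.11), the plasma membrane calcium pump Atp2b2 (-0.61 ± 0.10) and Camk2b (-0.59 ± 0.09). The store pump Atp2a2 fell by 0.50 ± 0.10. In all 8 of 30 measured genes fell, 0 rose and the median was -0.32. Without R6/2 array 4 the count of falls was 13, without both R6/2 array 4 and wild-type array 2 it was 12, and after quantile normalization 5. Camk2a, the other main subunit of calcium and calmodulin-dependent kinase II in brain, was not called although its difference was -1.07. It read 5.99, 5.43, 6.39 and 7.76 in R6/2 and 7.86, 7.65, 7.12 and 7.24 in wild-type, so R6/2 array 4 lay among the wild-type arrays. Hpca, the calcium sensor hippocalcin, was lower on every R6/2 array but was not called (-0.77 ± 0.19, adjusted p = 0.0659).

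Among potassium channel genes 7 of 28 fell and 0 rose, with a median of -0.18. After quantile normalization 2 fell. Kcnip2, an accessory subunit of A-type channels, had the largest fall of the named genes on the probe sets used for each gene. With a gene's probe sets averaged it was at -0.62, against -1.26 for Ryr1, and with the Actb covariate at -0.85. It read 7.21, 6.42, 7.44 and 7.60 in R6/2 and 8.55, 8.41, 8.52 and 8.34 in wild-type, a fall to 41.0% of wild-type (-1.29 ± 0.20, adjusted p = 0.00855). Wild-type arrays were tight, R6/2 array 2 was lowest, and the gene's other probe set gave 0.04. The pore-forming partner Kcnd2 was at -0.34 and not called. The other falls were the inward rectifier Kcnj4 (-0.65 ± 0.15), the background channel Kcnk2 (-0.62 ± 0.08), Kcnab1 (-0.57 ± 0.11), Kcna1 (-0.48 ± 0.11), Kcnk1 (-0.39 ± 0.08) and Kcnab2 (-0.32 ± 0.07). Of these 6 Kcnk2 alone stayed called whichever array was left out. Of 20 voltage-gated calcium and sodium channel genes, 3 auxiliary subunits fell: Cacna2d3 (-0.86 ± 0.10), Cacng3 (-0.79 ± 0.10) and Cacnb2 (-0.49 ± 0.07). None of the measured pore subunits was called, and the list median was -0.07.

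Neuropeptide precursors separated the pathways only in part. Penk, the precursor of enkephalin in indirect-pathway neurons, read 10.63, 11, 11.04 and 11.17 on the R6/2 arrays and 12.19, 11.94, 12.11 and 12.12 on the wild-type arrays. Penk fell to 45.7% of wild-type (-1.13 ± 0.11, adjusted p = 0.00119). Drd2, the D2 receptor of the same neurons, read 8.75, 9.11, 9.23 and 9.22 in R6/2 and 9.96, 9.87, 9.59 and 9.79 in wild-type. R6/2 array 1 was the lowest and the groups did not overlap, and Drd2 fell to 60.5% of wild-type (-0.73 ± 0.11, adjusted p = 0.00857). Of 5 measured indirect-pathway genes 3 fell, with Gucy1a1, a subunit of the nitric oxide receptor, as the other one (-0.36 ± 0.08), and the median was -0.36. The call of Gucy1a1 did not survive 7 of the 8 leave-one-out fits.

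Of 8 measured direct-pathway genes 1 fell, with a median of -0.07. Pdyn, the precursor of dynorphin, read 6.35, 6.35, 6.18 and 6.32 in R6/2 and 6.76, 7.10, 6.81 and 6.73 in wild-type. Its level lay below the array's median, at percentile 36.4 of all probe sets, and it fell to 68.2% of wild-type (-0.55 ± 0.09, adjusted p = 0.00871). Tac1, the precursor of substance P, read 10.32, 10.13, 10.62 and 10.34 in R6/2 and 10.54, 10.62, 10.28 and 10.35 in wild-type. The groups overlapped fully and Tac1 was not called (-0.09 ± 0.11, adjusted p = 0.712). Isl1, a transcription factor of direct-pathway neurons, was at 0.07 and Chrm4, a muscarinic receptor of these neurons, at -0.06. The difference between the lists was not tested. Of transcription factors that both kinds of projection neuron share, Bcl11b (-0.60 ± 0.12) and Foxp1 (-0.59 ± 0.11) fell, Meis2 was lower without a call (-0.54 ± 0.16, adjusted p = 0.107) and Foxp2 was at -0.02. Cnr1, the cannabinoid receptor on projection neuron terminals, fell to 62.5% of wild-type (-0.68 ± 0.11, adjusted p = 0.0106), from 8.28, 7.87, 8.39 and 8.22 to 7.46, 7.34, 7.54 and 7.71.

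Some synaptic genes fell. Gabrd, the delta subunit of GABA-A receptors outside synapses, fell to 51.2% of wild-type (-0.96 ± 0.12, adjusted p = 0.00356). It read 7.73, 8.27, 8.34 and 8.25 in R6/2 and 9.26, 9.06, 8.98 and 9.16 in wild-type. Gad1, which synthesizes GABA, fell by 0.72 ± 0.10, while Gad2 was not called (-0.39 ± 0.11). These were the falls among 12 genes of GABA receptors and synthesis, whose median was -0.17. Of 16 postsynaptic scaffold genes 4 fell, with a median of -0.24: Homer1 (-0.83 ± 0.15), Baiap2 (-0.67 ± 0.11), Dlg4 (-0.60 ± 0.10), which encodes PSD-95, and Shank3 (-0.53 ± 0.08). Other probe sets of Dlg4 gave -0.98 to 0.01, so the probe sets of this gene disagreed. Of 14 glutamate receptor genes only the kainate subunit Grik2 fell (-0.40 ± 0.07). The AMPA receptor subunits Gria1 (-0.33) and Gria3 (-0.39) were not called, and the NMDA subunits Grin2a (0.02) and Grin2b (0.09) lay near 0. Of 26 synaptic vesicle genes 2 fell, Syt1 (-0.74 ± 0.16) and Syn2 (-0.49 ± 0.11). Without wild-type array 2, and after quantile normalization, 0 of the 26 were called lower. Without R6/2 array 4 the count was 5, and 3 with both arrays left out.

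Activity-regulated genes fell in some families and not in others. Of 38 measured immediate early genes 12 fell and 0 rose, with a median of -0.14. Egr1, a zinc finger transcription factor induced by synaptic activity, read 10.22, 10.58, 10.57 and 10.62 on the R6/2 arrays and 11.04, 11.30, 11.29 and 11.73 on the wild-type arrays. R6/2 arrays 2 to 4 were nearly equal, array 1 was lower and wild-type array 4 was highest. Egr1 was reduced to 55.7% of wild-type (-0.84 ± 0.14, adjusted p = 0.00920 in limma). The gene Arc, a regulator of AMPA receptor traffic, read 8.05, 8.07, 8.10 and 7.96 in R6/2 and 8.85, 8.44, 8.82 and 8.63 in wild-type and fell by 0.64 ± 0.09 (adjusted p = 0.00563). Egr2 read 5.10, 5.11, 4.99 and 5.01 in R6/2 and 5.60, 5.44, 5.45 and 5.85 in wild-type, a level at percentile 14.9 of all probe sets, and fell by 0.54 ± 0.09 (adjusted p = 0.0119). Fos, the best known marker of neuronal activation, read 8.08, 8.03, 8.26 and 7.85 in R6/2 and 8.27, 7.90, 7.94 and 8.05 in wild-type. The groups overlapped and Fos was not called (0.01 ± 0.10, adjusted p = 0.960). Its relatives Fosb (-0.10), Junb (-0.23) and Jun (-0.18) were not called either.

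The further activity-regulated falls were Dusp14 (-0.73 ± 0.10), Rgs2, Klf10 (-0.57 ± 0.11), Dusp1 (-0.53 ± 0.09), Ier5 (-0.52 ± 0.09), Nr4a1 (-0.52 ± 0.11), Dusp6 (-0.49 ± 0.11) and Plk2 (-0.44 ± 0.10), with Homer1 counted here as well. Dusp1, Dusp6 and Dusp14 encode phosphatases that inactivate MAP kinases or related kinases. Dusp1, Dusp14, Ier5 and Rgs2 stayed called whichever array was left out, and Dusp6 and Plk2 lost theirs in 7 of them. Without R6/2 array 4 and wild-type array 2, 13 of the 38 fell with a median of -0.16. The count of falls was 9 without wild-type array 2 alone, 9 after quantile normalization and 8 with the Actb difference as a covariate. All mice had been injected shortly before death, and no uninjected array exists to set these levels against.

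Many of these genes are induced through the cyclic AMP response element, TGACGTCA, or its core TGACG. The promoters shown, of Dusp1, Plk2, Nr4a1 and Sst, are ones that hold the element or its core, and do not stand for all the falls. The windows are the 250 bases before the transcription start from RefSeq (GRCm38.p6), 5′ to 3′ on the strand of the gene, with TGACGTCA and every TGACG of either strand (CGTCA on the strand shown) in capitals. TGACG lies within TGACGTCA, so each full element holds the core on both strands. Dusp1 is at chr17:26508473-26508722, minus strand. Plk2 is at chr13:110394794-110395043, plus strand. Nr4a1, an orphan nuclear receptor, is at chr15:101266596-101266845, plus strand. Sst, a called interneuron gene described below, is at chr16:23890845-23891094, minus strand.
Dusp1: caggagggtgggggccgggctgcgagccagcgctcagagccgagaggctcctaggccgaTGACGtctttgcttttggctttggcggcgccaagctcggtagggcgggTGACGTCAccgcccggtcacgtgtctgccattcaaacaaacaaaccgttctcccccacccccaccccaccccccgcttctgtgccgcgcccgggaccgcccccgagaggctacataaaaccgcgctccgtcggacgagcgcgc
Plk2: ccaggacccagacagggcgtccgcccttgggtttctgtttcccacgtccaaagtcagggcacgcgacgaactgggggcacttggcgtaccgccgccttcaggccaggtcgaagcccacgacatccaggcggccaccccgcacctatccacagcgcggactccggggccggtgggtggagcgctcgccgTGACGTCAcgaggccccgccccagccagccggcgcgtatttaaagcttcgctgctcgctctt
Nr4a1: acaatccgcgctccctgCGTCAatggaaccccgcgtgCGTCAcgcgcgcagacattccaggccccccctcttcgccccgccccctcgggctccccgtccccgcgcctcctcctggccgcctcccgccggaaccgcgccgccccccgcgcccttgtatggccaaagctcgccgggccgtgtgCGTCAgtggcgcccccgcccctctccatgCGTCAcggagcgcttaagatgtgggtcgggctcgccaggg
Sst: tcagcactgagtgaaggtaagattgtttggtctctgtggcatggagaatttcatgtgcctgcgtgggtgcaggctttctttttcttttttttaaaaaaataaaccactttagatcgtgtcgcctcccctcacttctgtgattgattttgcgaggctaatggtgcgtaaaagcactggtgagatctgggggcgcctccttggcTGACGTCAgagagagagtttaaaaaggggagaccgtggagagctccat

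Among the called lower genes 217 had such a window, and 10 of them held TGACGTCA, which is 4.61%, against 2.53% of 9887 measured genes and 1.77% of all 27025 genes with a window. The core TGACG on either strand was in 32.7% of the lower genes and 27.0% of the measured genes. Of the 9 lower immediate early genes with a window 6 held the core, which is 66.7%, and so did 20 of 30 measured immediate early genes, also 66.7%. The full element was in 2 of these 9, Dusp1 and Plk2 (22.2%), and in 4 of the 30 (13.3%). The serum response element known as the CArG box was in 4 of the 217 lower genes, 1.84%, against 1.60% of measured genes. Among immediate early genes it was in Egr2 alone, 1 of the 9 lower (11.1%) and 1 of the 30 measured (3.33%). These matches describe letters in a window, are not known binding sites, and were not tested.

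Genes of astrocytes and oligodendrocytes also fell. Of 15 astrocyte genes 4 fell and 0 rose, with a median of -0.30. With the Actb difference as a covariate 6 fell (median -0.41), and after quantile normalization 2. Glul, the enzyme that converts glutamate to glutamine, read 9.83, 9.75, 10.23 and 10.33 in R6/2 and 10.56, 11.04, 10.87 and 11.27 in wild-type and fell by 0.90 ± 0.16 (adjusted p = 0.0138). Wild-type arrays ranged widely for this gene, and the call was lost after quantile normalization (-0.75, adjusted p = 0.0618). Gja1, the gap junction protein connexin 43, read 7.55, 7.22, 7.72 and 7.37 in R6/2 and 8.23, 8.11, 8.01 and 8.38 in wild-type. It fell by 0.72 ± 0.11 (adjusted p = 0.00868), stayed called whichever array was left out, and its other probe sets gave -0.99 to -0.27. The glutamate transporter Slc1a3 (-0.56 ± 0.11) and the lipid carrier Apoe (-0.44 ± 0.10) fell too. The second glutamate transporter Slc1a2 (-0.10), the filament protein Gfap (-0.18) and the enzyme Aldh1l1 (-0.21) were not called.

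Of 12 mature oligodendrocyte genes 2 fell, with a median of -0.33. With the Actb difference as a covariate 6 fell, with a median of -0.53. Ugt8a, which makes the myelin lipid galactocerebroside, read 8.17, 8.52, 8.20 and 8.14 in R6/2 and 9.0, 8.80, 9.34 and 9.45 in wild-type and fell by 0.89 ± 0.14 (adjusted p = 0.00855). Car2, carbonic anhydrase 2, fell by 0.70 ± 0.12. All 12 differences were below 0, and the structural myelin genes Mbp (-0.09) and Mog (-0.07) lay nearest to 0. Mobp (-0.65 ± 0.16, adjusted p = 0.0551) and Cldn11 (-0.61 ± 0.16, adjusted p = 0.0698) were lower on every R6/2 array without a call. The list's mean deviation was -0.26, -0.02, -0.20 and -0.31 on the R6/2 arrays and 0.11, -0.05, 0.27 and 0.46 on the wild-type arrays, so R6/2 array 2 lay above wild-type array 2. Olig2 was the 1 fall among 6 precursor genes (-0.39 ± 0.07). Of 13 microglial genes 0 were called in limma's adjusted test with a median of -0.03, and of 13 vessel genes 0 with a median of -0.07. Markers of neighbouring tissue, 8 cortical, 9 thalamic and 7 choroid plexus and ependymal genes, had 0 calls each and medians of 0.03, -0.06 and 0.01. Ttr, the main choroid plexus transcript, was 8.92 and 9.05 on R6/2 arrays 1 and 4 and 8.43 on wild-type array 2, and 11.83 to 12.66 on the other 5 arrays, so low and high values occurred in both genotypes.

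Striatal interneuron genes showed 3 falls among 14, with a median of -0.15. Sst, somatostatin, read 9.76, 10.05, 9.98 and 9.77 in R6/2 and 10.45, 10.38, 10.35 and 10.25 in wild-type. The groups did not overlap, and Sst fell to 72.4% of wild-type (-0.47 ± 0.08, adjusted p = 0.0135). Npy, which the same interneurons release, fell to 77.4% (-0.37 ± 0.07), from 9.71 to 9.88 on wild-type arrays to 9.31 to 9.48 on R6/2 arrays. Slc18a3, the vesicular acetylcholine transporter of cholinergic interneurons, fell to 72.2% (-0.47 ± 0.08). Nos1, a further gene of somatostatin interneurons, was at -0.41 without a call (adjusted p = 0.0757), and Pvalb, the marker of fast-spiking interneurons, was at -0.09. The call of Slc18a3 held whichever array was left out, and those of Sst and Npy failed in 2 of the 8 fits and after quantile normalization (Sst adjusted p = 0.0506, Npy adjusted p = 0.0808).

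**Figure D4:**
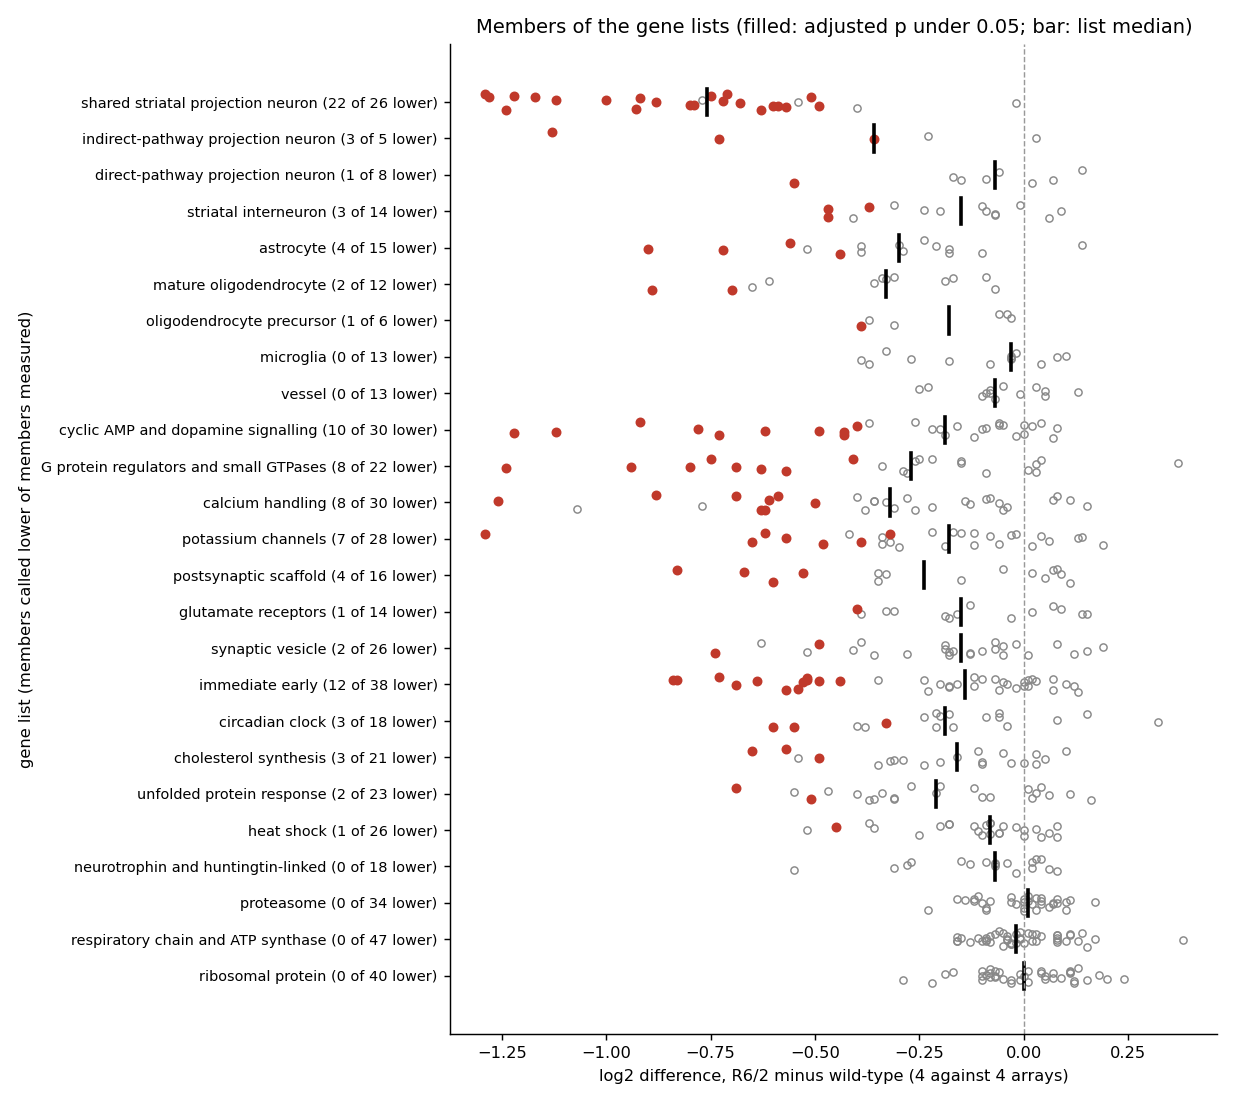
Log2 difference, R6/2 minus wild-type, of each measured member of 25 gene lists on the M.C arrays; filled points were called at adjusted p under 0.05 and the bar is the list median. The shared projection neuron list has 22 of 26 members called lower and a median of -0.76, while the proteasome, respiratory chain and ribosomal lists have 0 called.

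Falls were also seen in other listed pathways. Of 15 retinoid genes 3 fell: the carrier Rbp4 (-0.82 ± 0.10), and the striatal receptors Rarb (-0.72 ± 0.10) and Rxrg (-0.71 ± 0.12), while Rara (0.00), Rxra (0.01) and Rxrb (0.01) showed no difference of that size. Of 18 circadian genes the output factors Hlf (-0.60 ± 0.12) and Dbp (-0.55 ± 0.11) and the clock factor Arntl (-0.33 ± 0.07) fell, while Clock (0.15) and Per2 (-0.06) were not called. Without wild-type array 2 only Dbp of these 3 remained called. Cholesterol synthesis had 3 falls among 21 genes with a median of -0.16: Hmgcs1, the enzyme that makes HMG-CoA, read 9.42, 9.95, 9.73 and 9.54 in R6/2 and 10.23, 10.10, 10.27 and 10.64 in wild-type and fell by 0.65 ± 0.13 (adjusted p = 0.0252). Msmo1 (-0.57 ± 0.12) and Idi1 (-0.49 ± 0.10), later enzymes of the pathway, were the others, and each of the 3 lost its call in 4 or 5 of the 8 leave-one-out fits. Of 26 developmental transcription factors Id4 (-0.68 ± 0.15), Pou3f1 (-0.60 ± 0.13) and Id2 (-0.47 ± 0.10) fell, and none of these was called without wild-type array 2. Ptpn5, the striatum-enriched phosphatase STEP, fell by 0.79 ± 0.10, and Spred2 (-0.36 ± 0.08) and Srf (-0.32 ± 0.07) completed the 3 falls among 21 MAP kinase genes. That count was 7 without R6/2 array 4, 1 without wild-type array 2 and 1 after quantile normalization. Prkcb (-0.64 ± 0.10) and Prkch (-0.57 ± 0.09) fell among 21 protein kinase C and phosphoinositide genes. Of 29 cytoskeletal genes Tuba4a (-0.52 ± 0.07), Actn2 (-0.51 ± 0.11), Cap2 (-0.47 ± 0.08) and Actn1 (-0.35) fell, and the list median of -0.12 became 0.01 after quantile normalization.

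Protein folding genes held 3 calls. Falls were 8.7% of the unfolded protein response list and 3.85% of the heat shock list, against 2.17% of all genes. Of 23 unfolded protein response genes the chaperones Hsp90b1 (-0.69 ± 0.11) and Canx (-0.51 ± 0.09) fell, with a median of -0.21, and Hspa5 (-0.36) and Ddit3 (-0.10) were not called. Of 26 heat shock genes Hsph1 fell (-0.45 ± 0.09), and Hspa1a (0.00), Hspa8 (0.04) and Dnajb1 (0.08) stayed near 0. Glul was the 1 fall among 17 glucocorticoid-responsive genes (5.88%). In lists of this size a single call lies near the overall share. With the Actb covariate the counts of falls were 5 for the unfolded protein response, 3 for heat shock, 6 for cholesterol synthesis, 7 for the cytoskeleton and 4 for protein kinase C.

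Several groups that have been studied in Huntington disease held no called gene. Over all genes 2.31% were called, so a list of this size would hold few or no calls at the overall share, and these counts are a description of the lists. Of 18 neurotrophin and huntingtin-linked genes 0 were called, with a median of -0.07. Bdnf, the growth factor supplied largely by cortical axons, read 7.59, 7.37, 7.36 and 7.82 in R6/2 and 7.49, 7.51, 7.51 and 7.52 in wild-type (0.03 ± 0.10, adjusted p = 0.918). Ppargc1a, a coactivator of mitochondrial genes, read 8.20, 7.38, 8.36 and 7.24 in R6/2 and 8.23, 8.15, 8.59 and 8.42 in wild-type. R6/2 arrays 2 and 4, which stood apart, were low and arrays 1 and 3 lay among the wild-type values, so Ppargc1a was not called (-0.55 ± 0.22, adjusted p = 0.244). Histone deacetylases (0 of 12), proteasome subunits (0 of 34), respiratory chain and ATP synthase subunits (0 of 47), glycolytic enzymes (0 of 18), cytosolic ribosomal proteins (0 of 40), interferon-stimulated genes (0 of 17) and p53 targets (0 of 16) had no call in limma's adjusted test. Their medians were -0.02, 0.01, -0.02, -0.06, 0.00, 0.07 and -0.01. With the Actb covariate 3 respiratory chain genes were called lower and 1 higher. The neurotrophin and huntingtin-linked, histone deacetylase, proteasome, glycolytic, cytosolic ribosomal and p53 lists then each had 1 gene called lower. After quantile normalization the medians of the respiratory chain and the glycolytic enzymes changed sign, to 0.11 and 0.06. Those of the proteasome and the cytosolic ribosomal proteins became 0.11 and 0.09. Of 53 mitochondrial ribosomal proteins Mrpl39 rose (0.31 ± 0.06), the 1 called rise in any of the 43 lists.

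Rises were fewer and smaller than falls. Against 35 rises on all 8 arrays, there were 146 without R6/2 array 4, 193 with array weights, 219 with the Actb covariate, and 271 with quantile normalization and without R6/2 array 4. There were 8 without wild-type array 2. Polr2a, the largest subunit of RNA polymerase II, read 9.33, 9.53, 9.44 and 9.24 on the R6/2 arrays and 8.86, 9.06, 8.89 and 8.89 on the wild-type arrays. The groups did not overlap, and Polr2a rose to 138% of wild-type (0.46 ± 0.08, adjusted p = 0.0119), with its other probe set at 0.26. Sdr42e1, a short-chain dehydrogenase, read 7.40, 7.49, 7.39 and 7.31 in R6/2 and 6.95, 6.93, 7.0 and 6.96 in wild-type and rose to 135% (0.44 ± 0.06, adjusted p = 0.00563). Of the 15 named rises, these were the 2 that stayed called whichever array was left out. Hook2, an adaptor between organelles and microtubules, rose by 0.44 ± 0.08. Hsd3b3 (0.42 ± 0.09), an enzyme of steroid synthesis, was measured by a probe set that the array's design marks as cross-hybridising, so close copies may add to it. Cntn6 (0.41 ± 0.08), a neuronal adhesion molecule, Asl (0.39 ± 0.08), the urea cycle enzyme argininosuccinate lyase, and Tmem59 (0.37 ± 0.08) followed. Mfsd4a, Tex16, Unc13b, Vmn2r-ps54, Tdrd1, Dcx and Vmn1r42 rose by 0.29 to 0.34, and the median of these and the rises named above was 0.34 over 15 genes. By mean signal, 7 of the 15 lay below the median of all probe sets, against 1 of the 20 largest falls. With a gene's probe sets averaged, Dcx (0.16), Mfsd4a (0.3) and Mrpl39 (0.25) were not called. Of the 15, 4 were called without wild-type array 2 and 7 without both R6/2 array 4 and wild-type array 2, while of the 20 largest falls 20 were called in either case. Both sets were chosen on these same arrays, and the falls had a larger median difference, -0.98, which favours keeping their calls.

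The 6 Mith arrays had no part in choosing any gene by its M.C values. Within Mith alone 0 probe sets were called in limma's adjusted test, and 2008 (8.87%) passed 0.05 before adjustment. Of the 523 probe sets lower in M.C, 449 were also lower in Mith, which is 85.9%, while of all probe sets lower in M.C without regard to a call 52.8% were. The median difference of the 523 was -0.17 in Mith against -0.52 in M.C, where they had been chosen. In Mith 148 of them, 28.3%, were lower at an unadjusted p under 0.05, against 4.05% of all probe sets. Of the 35 rises 24 were higher in Mith, 68.6%, with a median of 0.09 there, while 49.6% of all probe sets were lower in Mith. The shared projection neuron list had a median of -0.34 in Mith against -0.76 in M.C. The 9 thalamic markers had a median of -0.48 in Mith against -0.06 in M.C, and ribosomal, proteasome and respiratory chain genes had medians of 0.24, 0.22 and 0.22 in Mith. The part of these in the Mith values was not tested.

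All 20 of the largest falls were lower in Mith too. Ryr1 was at -0.84 ± 0.12 there, Ugt8a at -0.65 ± 0.14, Coch, an extracellular matrix protein, at -0.60 ± 0.13 against -1.06 ± 0.15 in M.C, Penk at -0.57 ± 0.12 and Rgs4 at -0.56 ± 0.12. Car2 (-0.63 ± 0.10) and Egr2 (-0.57 ± 0.09) were close in Mith to their M.C values of -0.70 and -0.54. Rgs2 (-0.02 ± 0.09), Kcnk2 (0.00 ± 0.13), Ckmt1, a mitochondrial creatine kinase (0.01 ± 0.10 against -0.63 ± 0.08 in M.C), P4ha1, a collagen hydroxylase (0.00 ± 0.11 against -0.64 ± 0.07), Pdyn (-0.04 ± 0.09) and Cacng3 (-0.04 ± 0.17) were near 0 in Mith. Whether the genotype difference itself differed between the cohorts was tested with an interaction term over all 14 arrays. By limma's adjusted test 0 of 22626 probe sets were called, 2213 (9.78%) passed 0.05 before adjustment, and the smallest adjusted p was 0.111. It belonged to Cnot7, a subunit of the complex that shortens mRNA tails, with a difference of -0.40 ± 0.08 in the M.C arrays against 0.30 ± 0.09 in the Mith arrays. The next were Rtn2 (-0.25 ± 0.06 in M.C, not called, and 0.23 ± 0.08 in Mith), P4ha1 and Polr2a (-0.10 ± 0.08 in Mith), each with an adjusted interaction p of 0.193. Among the 523 M.C falls 302 had an unadjusted interaction p under 0.05, 57.7%, a share that the choice of these probe sets on their M.C values favours.

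**Figure D5:**
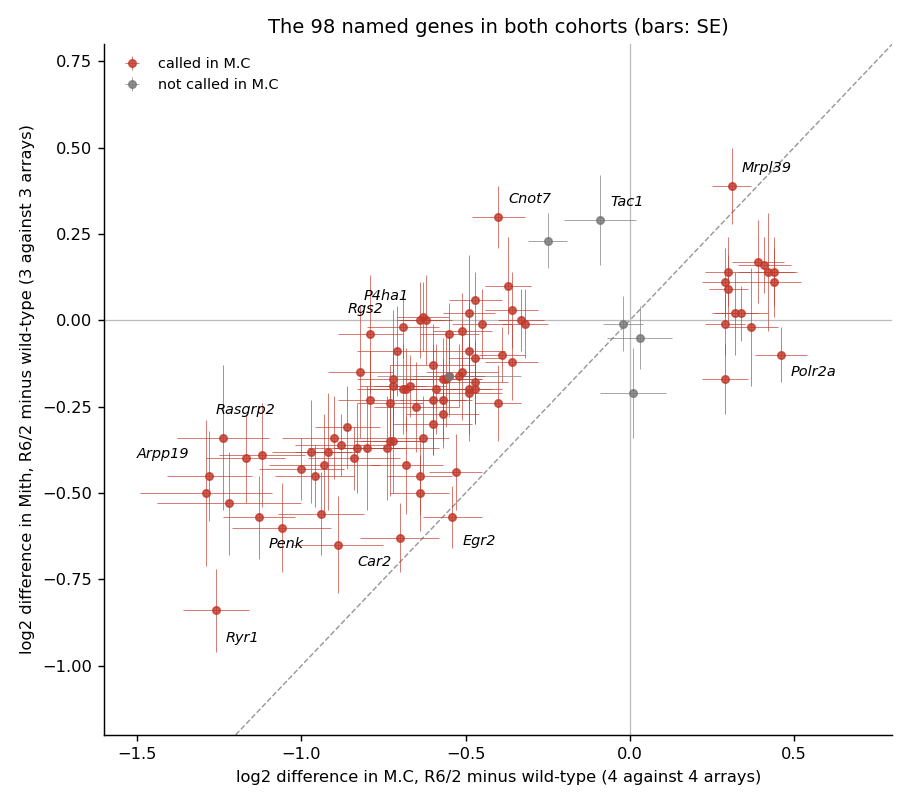
Log2 difference, R6/2 minus wild-type, of the 98 named genes in M.C (horizontal, 4 against 4 arrays) and in Mith (vertical, 3 against 3 arrays), with SE bars; the dashed line marks equal differences. Falls smaller in Mith lie above the line, as with Rasgrp2 (M.C -1.24, Mith -0.34), and Ryr1 is lowest in Mith at -0.84.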

How the data were processed

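Total RNA of striatum was measured on a mouse array with probe set names in the Affymetrix form. The deposited table holds log2 values, read as such from their range (2.955 to 14.463 on the M.C arrays); the summary method and normalization are not given in the sources used here, and no raw scans were used. The 64 control probe sets were left out of 22690, and each array was shifted to a common median (deposited medians 7.084 to 7.175). Of the rest, 20380 probe sets had 1 symbol, 691 several and 1555 none, and 20351 symbols were updated by gene ID. For each gene, probe sets without _x_ or _s_ in their names came first, and of those the one with the highest mean over the M.C arrays was used.

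Tests used limma 3.58.1 in R 4.3.3 (lmFit and eBayes, two-sided), with genotype alone on the M.C arrays and 4 group means over all 14 arrays for the interaction. ± is the fit's SE. The fits were tested on simulated data. Quality measures were compared by exact permutation of 70 arrangements. Alternatives changed the scaling, filter, variance model, probe set choice, covariate or threshold, or left out 1 array.

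The gene lists (43 lists, 822 of 1026 genes measured) were made with earlier results of these data known. The arrays were chosen by their titles alone, although earlier results were known then too. Named genes are the 20 largest called falls, the 15 largest called rises, up to 3 called members of each list with the smallest p, the genes with the smallest interaction p and 19 fixed genes. Clone and predicted gene names, such as those with Rik, Gm or LOC, were left out before the largest falls and rises were taken. Other quoted genes, the pituitary list and the alternatives with 2 choices together were chosen after values were seen. Promoters came from RefSeq.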

Additional observations from a re-analysis of the deposited data

Results flagged for a closer look

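Within each group of 4 arrays, a value was picked out when its distance to the nearest other array took up more of the group's range than Dixon's 95% critical value allows. Of 232 groups examined 20 met this. Chance gives about 1 in 20 groups for genes not chosen by their values. The pituitary genes among these groups were listed after their values were seen, and the groups share the same arrays. The count therefore cannot be set against that chance rate and only describes the values picked out.

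Among called falls, Arpp21 was 10.76 on R6/2 array 3, above 10.22 to 10.24 on the other R6/2 arrays. On R6/2 array 1, Coch was 7.09, Car12 7.02, Gabrd 7.73 and Egr1 10.22, each below the other R6/2 arrays. Ugt8a was 8.52 on R6/2 array 2, above the others. Prkch was 7.74 on wild-type array 2 and Arntl 7.96 on wild-type array 4, each above the other wild-type arrays. In each of these genes the groups did not overlap.

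Among called rises, Polr2a was 9.06 and Vmn2r-ps54 6.50 on wild-type array 2, Tdrd1 5.74 on wild-type array 1 and Mrpl39 8.99 on wild-type array 4, all above the other wild-type arrays. Hook2 was 5.77 on wild-type array 1 and Hsd3b3 8.57 on R6/2 array 2, each below its group. Rtn2, not called, was 8.57 on wild-type array 1, above the others.

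The remaining values belong to wild-type array 2. Its pituitary hormone subunit genes stood above the other 7 M.C arrays, with Cga at 11.27 (5.74 to 6.45), Fshb at 7.41 (4.99 to 5.29), Lhb at 8.97 (7.26 to 7.63) and Tshb at 8.03 (6.52 to 6.66). Its mean Spearman correlation with the other arrays was 0.989, against 0.990 for the other wild-type arrays. The part of these transcripts in any genotype difference was not tested beyond leaving the array out.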

How the results depend on the processing

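The count of called probe sets was 558. It became 367 after quantile normalization, 1146 with array weights, 1228 with the Actb difference as a covariate, 321 with 1 probe set per gene (which tests fewer features) and 156 at a threshold of 0.01. With R6/2 array 4 left out it became 965 after quantile normalization and 0 with the Actb covariate, and these alternatives were chosen after seeing the data. Leaving out 1 array gave 242 to 962: 242 without R6/2 array 1, 962 without R6/2 array 4, and 295, 339, 287 and 272 without wild-type arrays 1 to 4. Apart from fewer features, arrays or a stricter threshold, the cause was not tested. The interaction gave 0 calls. It gave 2 with array weights and 0 to 7 with 1 array left out, namely 2 without R6/2 M.C array 4 and 7 without wild-type Mith array 2. No named gene reversed its direction while called. Of 98 named genes 92 were called, and 50 stayed called whichever M.C array was left out. With the Actb covariate and without R6/2 array 4, 92 lost their call. No paired analysis was possible because the labels give no replicate numbers shared between the groups. The number of arrays limits what can be called: the median SE was 0.081 and the smallest called difference 0.27.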

Other observations

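Single called genes outside the lists are given here. They were chosen after their values were seen, each stands for itself, and no group was counted or tested. Car12 and Car11, of the carbonic anhydrase family, fell by 0.97 (limma adjusted p = 0.00282) and fell by 0.69 (adjusted p = 0.00659). Cx3cl1, the neuronal chemokine fractalkine, fell by 0.80 (adjusted p = 0.00144), the sialyltransferase gene St8sia3 fell by 0.82 (adjusted p = 0.00158) and the transcription factor Foxo1 fell by 0.67 (adjusted p = 0.00158). Crym, a thyroid hormone binding protein, fell by 0.74 in M.C (adjusted p = 0.0341) but stood at 0.27 in Mith.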
